A study of Homo sapiens with 8 samples.

Results

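Long noncoding RNAs (lncRNAs) reported elsewhere as raised or growth-promoting in hepatocellular carcinoma were followed in 2 liver cancer cell lines, HepG2 and LM3, treated with JQ1 or with its DMSO vehicle. The 10 genes were taken by Ensembl gene ID: UCA1, CRNDE, LINC00511, LINC00665, FOXD2-AS1, TMPO-AS1, AFAP1-AS1, CASC9, LINC00460 and DUXAP8. All 10 had values, among 15469 loci with values in the series, and 8 reached a mean of 0.5 FPKM (fragments per kilobase of transcript, scaled to the mapped fragments of the library) in each line. AFAP1-AS1 and LINC00460 did not in either line. The smallest mean inside that threshold was the 0.610 FPKM of CASC9 in LM3, and the largest outside it was the 0.0275 FPKM of LINC00460 in HepG2.

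The 4 groups were HepG2 with JQ1, HepG2 with DMSO, LM3 with JQ1 and LM3 with DMSO, each with 2 libraries of total RNA depleted of ribosomal RNA. The labels name both lines as hepatocellular carcinoma lines and give neither the dose of JQ1 nor the length of treatment. Each is 1 cell line, and no label says that the libraries of a group came from separate cultures, so the p-values here reflect the spread between 2 libraries a group, possibly a technical one.

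JQ1 is a small molecule that occupies the acetyl-lysine pocket of BET bromodomain proteins and releases them from chromatin. Genes under dense enhancer clusters (super-enhancers), the subject of the study's title, are known to depend strongly on these proteins. Many lncRNAs of liver cancer are described as cytoplasmic RNAs that bind microRNAs, or as nuclear RNAs that bind chromatin-modifying complexes such as PRC2.

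Sequences are shown for 3 members with a promoter window, picked by the direction of their libraries, and for DUXAP8 and a copy of it. RefSeq promoter windows of GRCh38.p14, from 250 bases before to 50 after the gene start, were matched for 6 of the 10 members. UCA1, AFAP1-AS1, CASC9 and DUXAP8 had none. LINC00665 has a pair of overlapping windows, of which the upstream one is shown. The 3 below belong to LINC00665, which was lower with JQ1 in each library of both lines, to FOXD2-AS1, which was higher in each, and to CRNDE, whose level overlapped between groups. In the test described below, LINC00665 was called in HepG2 only and FOXD2-AS1 in neither line. They lie at chr19:36331704-36332003, chr1:47434592-47434891 and chr16:54928837-54929136, all on the minus strand, and read 5′ to 3′. Capitals mark matches to 5 motifs, each searched on both strands. The E-box was searched as the letters CACGTG. The GC box was searched as the letters GGGCGG. The CCAAT box was searched by the letters of its name. The TATA box was searched as the letters TATAAA. The motif of the AP-1 factors was searched as TGANTCA. The matches found did not overlap each other.
LINC00665: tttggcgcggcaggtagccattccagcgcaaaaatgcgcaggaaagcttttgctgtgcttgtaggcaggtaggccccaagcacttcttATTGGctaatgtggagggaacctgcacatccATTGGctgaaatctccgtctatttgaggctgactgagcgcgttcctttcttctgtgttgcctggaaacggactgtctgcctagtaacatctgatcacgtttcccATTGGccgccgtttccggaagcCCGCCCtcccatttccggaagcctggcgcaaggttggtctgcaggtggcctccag
FOXD2-AS1: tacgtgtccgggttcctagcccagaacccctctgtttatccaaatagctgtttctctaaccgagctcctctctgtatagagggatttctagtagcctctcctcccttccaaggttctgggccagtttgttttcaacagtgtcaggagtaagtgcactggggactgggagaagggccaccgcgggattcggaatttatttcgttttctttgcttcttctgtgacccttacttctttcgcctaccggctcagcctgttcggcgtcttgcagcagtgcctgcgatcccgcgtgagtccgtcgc
CRNDE: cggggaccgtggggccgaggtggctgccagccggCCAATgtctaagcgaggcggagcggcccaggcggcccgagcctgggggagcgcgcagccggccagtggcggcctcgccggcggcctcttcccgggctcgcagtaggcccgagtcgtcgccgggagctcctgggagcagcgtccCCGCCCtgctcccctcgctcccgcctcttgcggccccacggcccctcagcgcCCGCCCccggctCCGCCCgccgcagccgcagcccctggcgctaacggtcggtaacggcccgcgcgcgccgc
The LINC00665 window held 3 matches to the CCAAT box and 1 to the GC box. At least 1 CCAAT box was present in 35.7% of 27305 promoter windows of this length and at least 3 in 3.42%, and a GC box in 44.6%. The E-box was in 7.43%, the TATA box in 12.0% and the AP-1 motif in 7.76%. FOXD2-AS1 had no match to any of the 5, and neither had TMPO-AS1, whose libraries overlapped between groups in both lines. LINC00511 had 1 GC box, and LINC00460 had 1 CCAAT box and 2 matches to the AP-1 motif. CRNDE had 3 GC boxes and a single CCAAT box, at a GC content of 80.0%, against 55.3% for LINC00665, 53.3% for FOXD2-AS1 and a median of 58.3% over all windows. A match is only a stretch of letters and says nothing of binding. The motifs were not tested against the changes with JQ1.

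DUXAP8 is a transcribed pseudogene of a double homeobox gene on chromosome 22, and near-identical copies of it lie on chromosome 14. Its longest GENCODE release 29 transcript (4136 bases) aligned to a DUXAP10 transcript over 4119 columns without a gap, at 99.4% identity. No ungapped 100-base window holds more than 3 differences. The first window with 3, in capitals below, starts at base 2094 of the DUXAP8 transcript.
DUXAP8: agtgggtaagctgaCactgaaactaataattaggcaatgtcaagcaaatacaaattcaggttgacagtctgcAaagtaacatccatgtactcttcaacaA
DUXAP10: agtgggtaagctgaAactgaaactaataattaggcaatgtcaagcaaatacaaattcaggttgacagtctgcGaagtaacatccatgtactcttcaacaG
Of the 31-base words of the DUXAP8 transcript, 81.4% also occur in DUXAP10 and 46.3% in DUXAP9. For the other 9 members the share found in any other gene ran from 0 to 6.07%. Values of DUXAP8 may therefore include reads of its copies, and DUXAP10 and DUXAP9 were not analysed here.

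The levels of the members spanned a wide range within each line. In HepG2 with vehicle, DUXAP8 was highest at 25.7 ± 0.559 FPKM (mean ± SD, n = 2, as for all means that follow), ahead of 98.0% of the loci tested there. CRNDE followed at 9.34 ± 0.354, LINC00511 at 6.25 ± 0.0636, LINC00665 at 5.28 ± 0.0141 and CASC9 at 3.0 ± 0.792 FPKM. FOXD2-AS1, TMPO-AS1 and UCA1 were at 1.85 ± 0.0354, 1.59 ± 0.134 and 1.39 ± 0.0778 FPKM. No neighbours among these 8 had overlapping library values in HepG2, and LINC00460 and AFAP1-AS1 at the bottom did overlap.

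In LM3 with vehicle the order differed. DUXAP8 at 21.3 ± 0.170 FPKM and LINC00665 at 20.1 ± 0.0212 FPKM stood at the top, without overlap, and were ahead of 97.2% and 96.8% of the tested loci. CRNDE had 4.83 ± 0.332, LINC00511 4.38 ± 0.276 and UCA1 3.3 ± 0.0141 FPKM. FOXD2-AS1 was at 1.77 ± 0.0424, TMPO-AS1 at 1.61 ± 0.0566 and CASC9 at 0.755 ± 0.191 FPKM, and the ranges of neighbours again did not overlap. With JQ1 in LM3 only FOXD2-AS1 and UCA1, among the 8 genes, had overlapping ranges, 2.19 and 2.20 FPKM against 2.05 and 2.23 FPKM.

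Set across the lines, the vehicle mean in LM3 was 3.81 times that in HepG2 for LINC00665 and 2.38 times for UCA1, and 0.252 times for CASC9, 0.517 times for CRNDE and 0.701 times for LINC00511. FOXD2-AS1 and TMPO-AS1 were nearly level, at 0.959 and 1.02 times. DUXAP8 stood at 0.830 times. The 2 tables may have been normalized separately, so these ratios of levels were not tested.

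**Figure D1:**
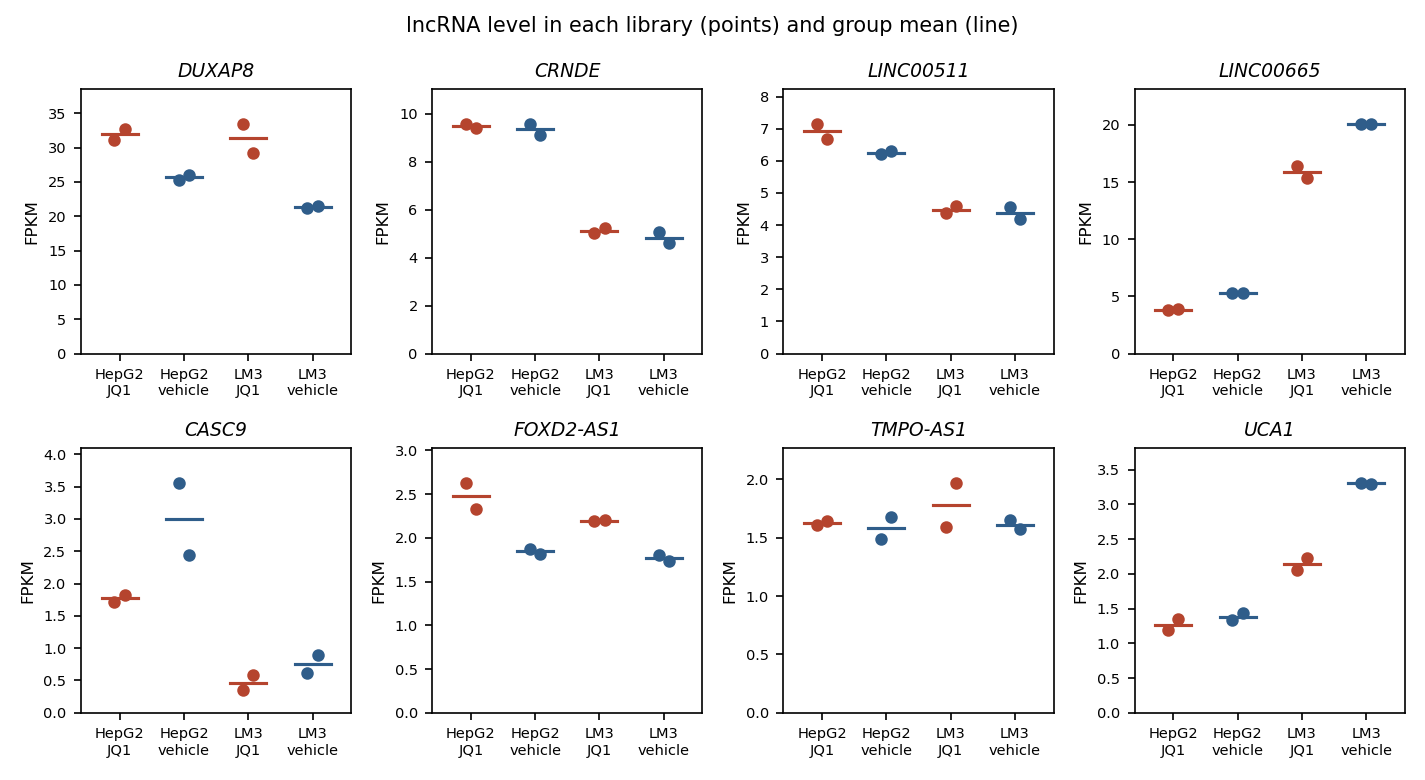
FPKM (y axis, from 0, its own scale in each panel) of the 8 lncRNAs at a mean of at least 0.5 FPKM, in JQ1 (red) and vehicle (blue) libraries of HepG2 and LM3; points are libraries and lines are means of 2. DUXAP8 and FOXD2-AS1 lie higher and LINC00665 and CASC9 lower with JQ1 in both lines. LINC00511 lies apart only in HepG2 and UCA1 only in LM3. There UCA1 had 2.05 and 2.23 FPKM with JQ1 and 3.31 and 3.29 FPKM with vehicle. Of all tested loci, 66.4% in HepG2 and 66.7% in LM3 did not overlap.

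JQ1 was compared with vehicle within each line by limma on log2(FPKM + 0.5), with Benjamini-Hochberg adjustment over every locus tested and a threshold of 0.05. Over all loci, 25.1% of 5906 were called in HepG2 (10.8% higher, 14.2% lower; 23.4% among Ensembl loci) and 23.3% of 6474 in LM3 (7.92% higher, 15.4% lower). The HepG2 calls, 640 higher and 840 lower, became 809 and 786 with libraries centred on their median. They became 571 and 957 when rescaled to the FPKM outside mitochondrial loci and loci within 50000 bases of a ribosomal RNA gene. The LM3 calls, 513 higher and 998 lower, became 700 and 770 with that centring and 715 and 732 after quantile normalization. Among the 8 members, 1 rose and 1 fell in each line, 2 of 8 being close to the share of all loci. DUXAP8 rose in both lines, LINC00665 fell in HepG2 and UCA1 fell in LM3. In bulk RNA, fewer cells of a type and less RNA per cell cannot be told apart. The median log2 fold change of the 8 was 0.024 in HepG2, against -0.0056 for all tested loci, and 0.055 in LM3, against -0.084. Among Ensembl loci, to which all 8 belong, the medians were -0.052 and -0.15. The median of the 8 turned to -0.025 in HepG2 after the same rescaling, where that of all loci was -0.048. In LM3 the median of the 8 was 0.14 with median centring, 0.17 after quantile normalization and 0.12 after rescaling. That of all loci was then -0.00032, 0.013 and -0.033. JQ1 and vehicle libraries did not overlap for 5 members in HepG2, where 66.4% of all tested loci did not, and for 5 in LM3, where 66.7% did not. In HepG2 3 members lay above (32.4% of all tested loci) and 2 below (33.9%), and in LM3 2 lay above (27.0%) and 3 below (39.7%). For 4 members, LINC00665, FOXD2-AS1, CASC9 and DUXAP8, the libraries were apart in the same direction in both lines, as they were for 45.1% of 5035 loci tested in both.

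Loci on the mitochondrial chromosome or within 50000 bases of a ribosomal RNA gene numbered 58, and may include other genes nearby. In HepG2 they took 17.2% and 18.1% of the FPKM with JQ1, against 15.3% and 15.9% with vehicle. In LM3 they took 21.3% and 22.9% with JQ1, against 18.98% and 19.7% with vehicle. The FPKM of all loci summed to between 29369 and 35742 per library. The LM3 JQ1 library of replicate 1 listed the fewest loci above 0, 11230, where the other 7 listed 11866 to 12332. None of 7 coding markers of liver or other cells had values, so the lines were checked on lncRNAs. H19, abundant in fetal liver, was at 2101 to 2234 FPKM with JQ1 and 2038 to 2249 FPKM with vehicle in HepG2, and at 310 to 348 FPKM in LM3. HULC, a liver cancer RNA, was at 0.50 to 0.80 FPKM in all 8 libraries. Of the 6 of 10 hepatocyte-lineage lncRNAs with values, CPS1-IT1 was lower with JQ1, at 1.33 and 1.22 FPKM against 6.84 and 6.79 FPKM with vehicle in HepG2 and at 0.41 and 0.26 FPKM against 1.34 and 1.41 FPKM in LM3. LINC01485 was at 0.28 and 0.46 FPKM with JQ1 and 0.98 and 0.94 FPKM with vehicle in HepG2, and at most at 0.05 FPKM in LM3. LINC01554 was higher with JQ1 in both lines. It was at 0.30 and 0.31 FPKM with JQ1 and 0.21 and 0.21 FPKM with vehicle in HepG2. In LM3 it was at 0.25 and 0.18 FPKM with JQ1 and 0.15 and 0.14 FPKM with vehicle. LINC00844 was at most at 0.14 FPKM. The 6 of 8 lncRNAs of other cell types with values summed to 3.96 to 4.14 FPKM with JQ1 and 9.70 to 10.7 FPKM with vehicle in HepG2, and to 2.69 to 2.72 FPKM with JQ1 and 4.90 to 5.44 FPKM with vehicle in LM3. FENDRR, a mesenchymal lncRNA, was at 2.71 and 2.88 FPKM with JQ1 and 8.29 and 9.14 FPKM with vehicle in HepG2. In LM3 it was at 1.02 and 1.05 FPKM with JQ1 and 3.35 and 3.44 FPKM with vehicle. LINC00926 was at 0.92 and 1.00 FPKM with JQ1 and 0.74 and 1.14 FPKM with vehicle in LM3, and at 0.76 to 0.94 FPKM in HepG2. MEG3 was at most at 0.38 FPKM and MIAT at most at 0.62 FPKM. LINC00861 was at most at 0.01 FPKM and CARMN at most at 0.11 FPKM. The part of these shifts in the results was not tested.

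Of the RNAs described as microRNA sponges or as mainly cytoplasmic, UCA1 fell in LM3, LINC00665 fell in HepG2 and DUXAP8 rose in both lines. UCA1 (ENSG00000214049; chromosome 19, 15828206 to 15836328, plus strand of GRCh38) was first described in bladder cancer. In LM3 it was at 2.05 and 2.23 FPKM with JQ1 and at 3.31 and 3.29 FPKM with vehicle. Both JQ1 libraries were below both vehicle libraries. The fall was -0.53 on the log2(FPKM + 0.5) scale (SE 0.089, limma adjusted p = 0.0239). In HepG2 UCA1 was at 1.19 and 1.35 FPKM with JQ1 and at 1.33 and 1.44 FPKM with vehicle, ranges that overlapped (log2 fold change -0.092, 95% interval -0.36 to 0.17, limma adjusted p = 0.545). A locus on the opposite strand that covers 94.2% of UCA1, LINC01764, had at most 0.09 FPKM in any library. Whether reads were counted by strand is not given in the sources used here, so reads of overlapping loci on opposite strands cannot be told apart.

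LINC00665 (ENSG00000232677; chromosome 19, 36313067 to 36331770, minus strand), which is known to encode a micropeptide, CIP2A-BP, was lower with JQ1 in both lines. It had 3.78 and 3.88 FPKM with JQ1 in HepG2, against 5.29 and 5.27 FPKM with vehicle, and the groups were apart by far more than the gap within either. The fall in HepG2 was -0.42 (SE 0.075, limma adjusted p = 0.0238). In LM3 it had 16.41 and 15.33 FPKM with JQ1, against 20.13 and 20.10 FPKM with vehicle, again with no overlap. That difference of -0.33 (SE 0.084) missed the threshold at a limma adjusted p of 0.0542, and passed it with a filter at a mean of 1 FPKM (adjusted p = 0.0487) and among Ensembl loci only (adjusted p = 0.0379). On the opposite strand, ENSG00000267053 overlaps 43.9% of LINC00665. It was at 0.56 and 0.70 FPKM with JQ1 and 0.39 and 0.55 FPKM with vehicle in HepG2, and at 0.39 and 0.38 FPKM with JQ1 and 0.49 and 0.78 FPKM with vehicle in LM3.

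DUXAP8 (ENSG00000206195; chromosome 22, 15784959 to 15829984, plus strand), reported in liver cancer both as a sponge and with chromatin modifiers, had 31.07 and 32.78 FPKM with JQ1 in HepG2, against 25.29 and 26.08 FPKM with vehicle. In LM3 it had 33.51 and 29.24 FPKM with JQ1, against 21.21 and 21.45 FPKM with vehicle. JQ1 libraries were above vehicle libraries in both lines. The rise was 0.31 in HepG2 (SE 0.070, limma adjusted p = 0.0398) and 0.54 in LM3 (SE 0.10, limma adjusted p = 0.0285). In HepG2 the call was lost in 5 of 10 other settings, and the rise shrank to 0.16 after quantile normalization (adjusted p = 0.134).

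Both loci that overlap DUXAP8 on its own strand lay higher with JQ1 too. The authors' locus LXLOC_035944, which covers 70.2% of DUXAP8, averaged 18.2 ± 0.0424 FPKM with JQ1 and 11.2 ± 0.750 FPKM with vehicle in HepG2, and 17.0 ± 0.750 and 9.10 ± 0.0141 FPKM in LM3. ENSG00000272872, a locus of 694 bases inside DUXAP8, averaged 10.2 ± 0.431 FPKM with JQ1 and 4.75 ± 0.375 FPKM with vehicle in HepG2, and 10.8 ± 1.66 and 5.59 ± 0.346 FPKM in LM3. JQ1 over vehicle was thus a ratio of 1.63 and 1.87 for LXLOC_035944 in HepG2 and LM3, 2.14 and 1.93 for ENSG00000272872, and 1.24 and 1.47 for DUXAP8 itself. How the authors' counting assigned reads shared by these 3 loci is not stated, and they were not tested apart.

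**Figure D2:**
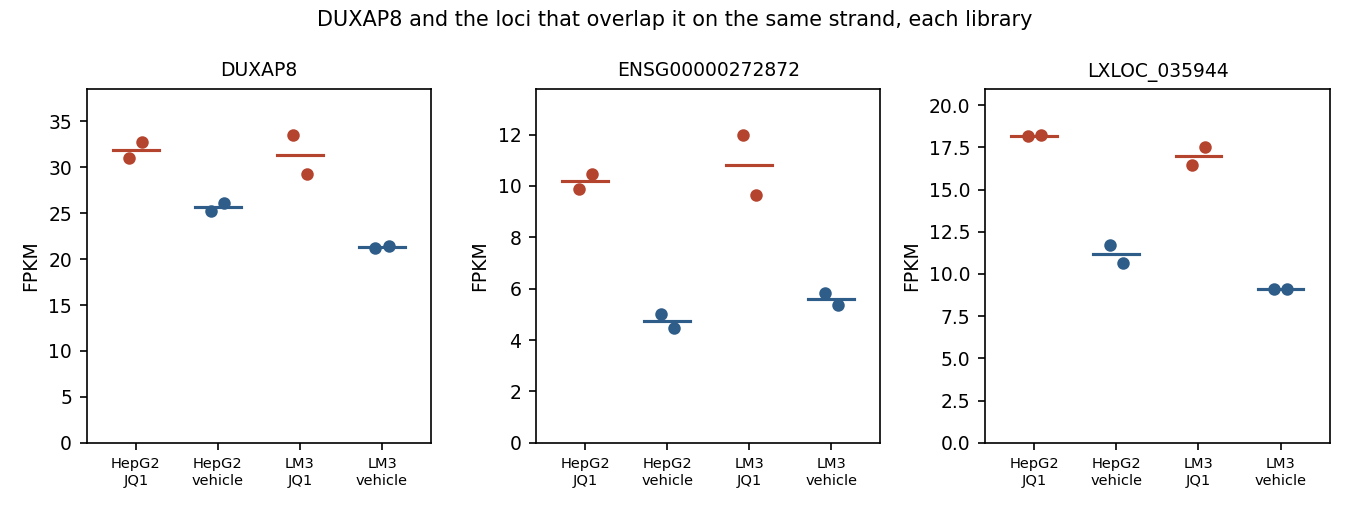
FPKM (y axis, from 0) of DUXAP8 and of the 2 loci that overlap it on the same strand, in JQ1 (red) and vehicle (blue) libraries; points are libraries and lines are means of 2. All 3 loci lie higher with JQ1 in each line, by ratios between 1.24 and 2.14.

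LINC00511 (ENSG00000227036; chromosome 17, 72290091 to 72640472, minus strand), reported to bind EZH2 and microRNAs, was at 7.16 and 6.69 FPKM with JQ1 and 6.20 and 6.29 FPKM with vehicle in HepG2. These libraries did not overlap, but the difference of 0.14 passed no threshold (95% interval -0.068 to 0.34, limma adjusted p = 0.26). In LM3 its libraries overlapped, at 4.38 and 4.58 FPKM with JQ1 and 4.57 and 4.18 FPKM with vehicle (0.032, 95% interval -0.21 to 0.28). The authors' locus LXLOC_025083, which spans all of LINC00511 on the same strand, was at 0.15 and 0.17 FPKM with JQ1 and 0.23 and 0.34 FPKM with vehicle in HepG2, and at most at 0.17 FPKM in LM3, where its groups overlapped. LINC00460 (ENSG00000233532; chromosome 13, 106374477 to 106384315, plus strand), described in squamous and other epithelial cancers, was listed at 0 in all 4 LM3 libraries. In HepG2 it had 0 and 0.03 FPKM with JQ1 and 0.08 and 0 FPKM with vehicle, too low to compare.

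Of the 4 RNAs beside or antisense to a coding gene, 3 were tested. Limma called 0 of these 3 in either line, where 25.1% of all loci were called in HepG2 and 23.3% in LM3. Under an unadjusted limma p of 0.05 lay 1 of the 3, FOXD2-AS1, in each line. Of all loci, 2376 of 5906 did so in HepG2 and 2607 of 6474 in LM3. Starts of coding genes lie 1673 bp from that of CRNDE (IRX5), 1376 bp from that of FOXD2-AS1 (FOXD2) and 910 bp from that of TMPO-AS1 (TMPO), all on the opposite strand, in GENCODE release 29. IRX5 and FOXD2 encode transcription factors and TMPO a protein of the nuclear lamina. The coding genes themselves have no values here.

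CRNDE (ENSG00000245694; chromosome 16, 54845189 to 54929189, minus strand), raised in colorectal tumours and reported to bind PRC2, had overlapping JQ1 and vehicle libraries in both lines. It was at 9.56 and 9.39 FPKM with JQ1 and 9.59 and 9.09 FPKM with vehicle in HepG2 (0.020, 95% interval -0.17 to 0.21, limma adjusted p = 0.862). In LM3 it was at 5.02 and 5.22 FPKM with JQ1 and 5.06 and 4.59 FPKM with vehicle (0.079, 95% interval -0.17 to 0.32, limma adjusted p = 0.563). The authors' locus LXLOC_021927, which covers 15.1% of CRNDE on the same strand, was at 0.55 and 0.64 FPKM with JQ1 and 0.38 and 0.27 FPKM with vehicle in HepG2, and at 0.35 and 0.39 FPKM with JQ1 and 0.27 and 0.34 FPKM with vehicle in LM3. The sign for CRNDE in HepG2 turned after quantile normalization, after rescaling and without vehicle replicate 2.

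FOXD2-AS1 (ENSG00000237424; chromosome 1, 47432133 to 47434641, minus strand), a single-exon RNA of 2509 bases, was the other member whose JQ1 libraries lay above the vehicle libraries in both lines. It had 2.63 and 2.33 FPKM with JQ1 and 1.87 and 1.82 FPKM with vehicle in HepG2, and 2.19 and 2.20 FPKM with JQ1 and 1.80 and 1.74 FPKM with vehicle in LM3. The difference was 0.34 in HepG2 (95% interval 0.096 to 0.59, limma adjusted p = 0.0607) and 0.25 in LM3 (95% interval 0.023 to 0.47, limma adjusted p = 0.103), so neither passed after adjustment. Quantile normalization gave an adjusted p of 0.0484 in LM3.

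TMPO-AS1 (ENSG00000257167; chromosome 12, 98512973 to 98516422, minus strand) overlaps the start of TMPO. It was at 1.61 and 1.64 FPKM with JQ1 and 1.49 and 1.68 FPKM with vehicle in HepG2, and at 1.59 and 1.97 FPKM with JQ1 and 1.65 and 1.57 FPKM with vehicle in LM3, with overlap in both. The differences were 0.029 (95% interval -0.22 to 0.28) and 0.11 (-0.21 to 0.42). The authors' locus LXLOC_013734, which covers all of TMPO-AS1 on the same strand, was lower with JQ1 in each library, at 1.42 and 0.97 FPKM against 1.66 and 1.56 FPKM with vehicle in HepG2, and at 1.63 and 1.42 FPKM against 2.27 and 2.43 FPKM in LM3. AFAP1-AS1 (ENSG00000272620; chromosome 4, 7754077 to 7778928, plus strand), antisense to the gene of an actin filament-associated protein, had at most 0.02 FPKM in any library.

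CASC9 (ENSG00000249395; chromosome 8, 75223127 to 75324741, minus strand), reported to work with the RNA-binding protein HNRNPL in liver cancer cells, had the largest difference of the 8 in HepG2 on the log2(FPKM + 0.5) scale, and the largest standard error there. It was at 1.72 and 1.83 FPKM with JQ1 and at 3.56 and 2.44 FPKM with vehicle. The difference of -0.60 (95% interval -1.07 to -0.14) missed the threshold (limma adjusted p = 0.0721). It was -0.84 without vehicle replicate 2 (adjusted p = 0.0439) and -0.37 without vehicle replicate 1 (adjusted p = 0.243), and with replicate numbers as a block the adjusted p was 0.046. In LM3 CASC9 was at 0.35 and 0.58 FPKM with JQ1 and at 0.62 and 0.89 FPKM with vehicle (-0.38, 95% interval -0.91 to 0.14, limma adjusted p = 0.221). Those groups did not overlap, and the gap between them was smaller than the gap within each.

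**Figure D3:**
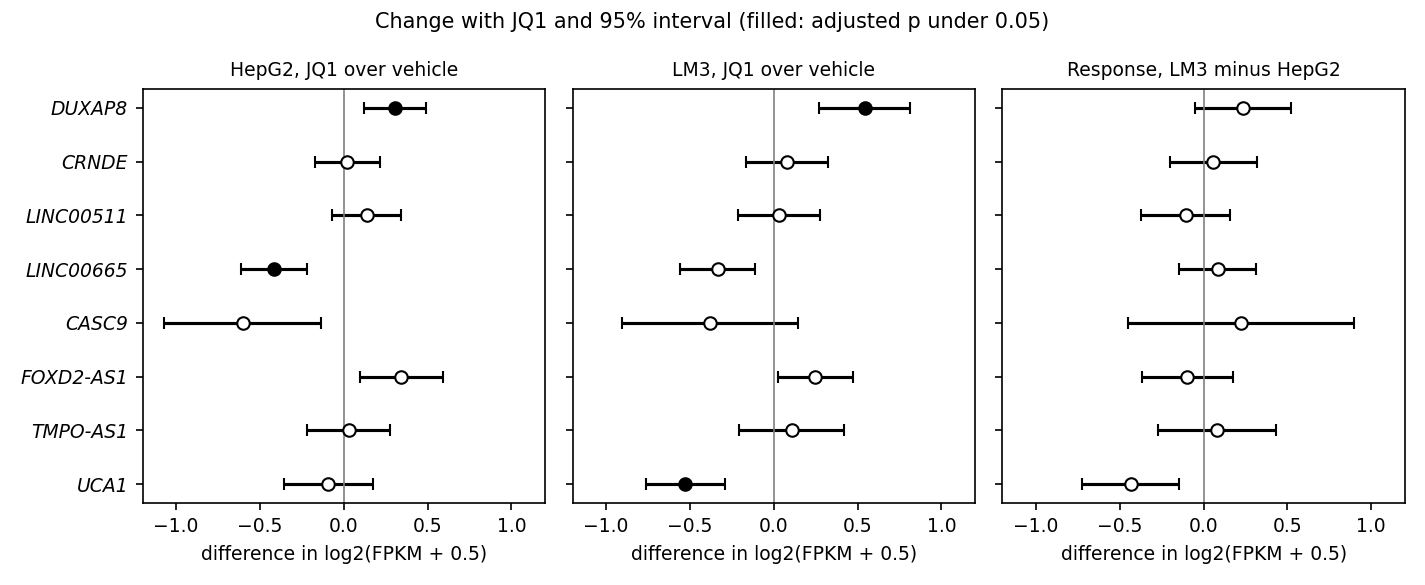
Difference between JQ1 and vehicle in HepG2 and in LM3, and the difference between these responses (LM3 minus HepG2), on the log2(FPKM + 0.5) scale (x axis) for the 8 lncRNAs; bars are 95% intervals and filled points passed an adjusted p of 0.05 in limma. DUXAP8 is filled in both lines, at 0.31 and 0.54, LINC00665 in HepG2 (-0.42) and UCA1 in LM3 (-0.53).

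Whether the lines responded alike was tested by limma over all 8 libraries, as the response in LM3 minus that in HepG2. No member passed, and 1 of 8 was at an unadjusted limma p under 0.05, as were 604 of all 5035 loci. Of all loci, 0.218% were called (0.199% lower in LM3 relative to HepG2, and 0.182% among Ensembl loci). These calls, 1 higher and 10 lower, became 6 and 14 with median centring and 6 and 11 after rescaling. For UCA1 the responses were -0.53 in LM3 and -0.092 in HepG2, a difference of -0.43 (SE 0.12, 95% interval -0.72 to -0.15, unadjusted p = 0.0098, limma adjusted p = 0.254). For DUXAP8 the difference was 0.23 (95% interval -0.052 to 0.52, limma adjusted p = 0.505) and for LINC00665 0.083 (95% interval -0.15 to 0.32, limma adjusted p = 0.767). The widest interval belonged to CASC9, from -0.45 to 0.90.

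Leaving out a single library ended every one of these calls. It left a group with 1 library, and calls then dropped over all loci too. The loss therefore says little about these members in particular. The adjusted p of DUXAP8 then lay between 0.0911 and 0.171 in HepG2 and between 0.0607 and 0.184 in LM3, that of LINC00665 in HepG2 from 0.0823 to 0.127 and that of UCA1 in LM3 from 0.0643 to 0.16. The signs of these 4 changes held, with ranges of 0.27 to 0.35, 0.45 to 0.64, -0.43 to -0.40 and -0.58 to -0.48.

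**Figure D4:**
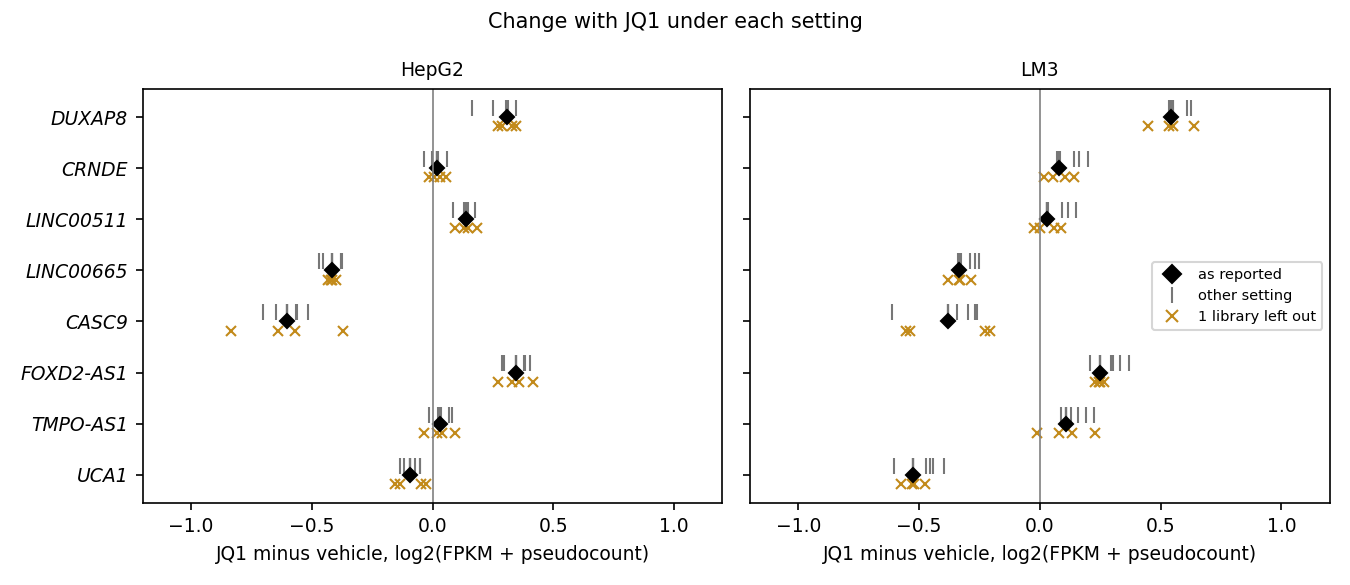
Difference between JQ1 and vehicle (x axis, log2 scale) for each of the 8 lncRNAs in HepG2 and LM3 as reported (diamonds), under the other processing settings (ticks) and with 1 library left out (crosses). DUXAP8, FOXD2-AS1, LINC00665, CASC9 and UCA1 keep their sign under every setting shown, while CRNDE and TMPO-AS1 in HepG2 and LINC00511 and TMPO-AS1 in LM3 cross 0 under at least 1.

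A comparison list of 42 further lncRNAs described as raised in liver cancer had 38 with values and 33 tested in each line. In HepG2, 2 of the 33 rose and 11 fell, where 10.8% of all tested loci rose and 14.2% fell, with a median of -0.14, against -0.0056 for all tested loci. In LM3, 5 of the 33 rose and 9 fell, where 7.92% and 15.4% of all loci did, with a median of -0.23, against -0.084. The tested loci of the list are all Ensembl loci, for which the medians were -0.052 in HepG2 and -0.15 in LM3. The list was chosen with earlier results of these data known. SBF2-AS1 fell to 2.13 and 2.02 FPKM with JQ1 in HepG2, against 4.80 and 5.82 FPKM with vehicle, and to 2.65 and 2.43 FPKM in LM3, against 9.69 and 8.17 FPKM (log2 fold changes -1.17 and -1.63, limma adjusted p = 0.00838 and 0.00657). AGAP2-AS1 also fell in both lines (-0.85 in HepG2 and -0.84 in LM3, limma adjusted p = 0.00823 and 0.0323). So did LUCAT1 (-0.70 in HepG2 and -1.02 in LM3, limma adjusted p = 0.0103 and 0.011). NEAT1, the paraspeckle RNA, rose by 0.98 in HepG2 and 0.64 in LM3, and SNHG12, a snoRNA host, by 0.40 and 0.47 (limma adjusted p from 0.00864 to 0.023). In the response difference, limma called none of the 31 loci of that list that were tested. Of these, 6 were at an unadjusted limma p under 0.05, as were 604 of all 5035 loci.

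Loci whose values moved most like a called member were sought among 1532 with a symbol and at least 0.5 FPKM in both lines, by Pearson's r over the 8 libraries after each line's mean was taken off. DUXAP8 was most like AC012615.1 (r = 0.997) and AL050343.1 (r = 0.985). LINC00665 was closest to AC107068.1 (r = 0.996) and AC073508.3 (r = 0.993), and UCA1 to TMED2-DT (r = 0.994) and HOTAIRM1 (r = 0.983). HOTAIRM1, a lncRNA of the HOXA cluster, had 10.25 and 10.55 FPKM with JQ1 in LM3, against 16.64 and 15.78 FPKM with vehicle. In HepG2 its groups overlapped, at 3.37 and 4.18 FPKM with JQ1 and 4.14 and 4.37 FPKM with vehicle. Some of these loci were low, with AL050343.1 at 0.31 to 1.09 FPKM and AC073508.3 at 0.36 to 1.65 FPKM over the 8 libraries. The 8 libraries are 2 in each of 4 groups, so these r values rest on few points and describe these libraries only.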

How the data were processed

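The deposited tables, 1 per cell line, hold lncRNA loci with FPKM values to 2 decimals, made by the authors and named FPKM per the file headers. The submitters' processing notes name Bowtie 0.12.2, hg19 and mm8 without a role; the coordinates matched GENCODE release 29 (GRCh38), with 85.7% of starts of 14860 shared IDs identical. The sources used here give no counter, strand setting or depth. Low values of loci of 200 to 400 bases, 79 to 103 per library, were searched for a common step. At the best-fitting step, 52.7% to 64.1% lay within 0.1 of a whole number, where an even spread would give 20%. This was not nearly all of them, so fragment counts were not recovered and no count test was run.

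Loci averaging 0.5 FPKM or more in a line's 4 libraries were tested by limma 3.58.1 (R 4.3.3; eBayes with trend and robust fitting, two-sided) on log2(FPKM + 0.5), with Benjamini-Hochberg adjustment over all loci tested; fold changes on this scale understate those of low loci. The response difference used all 8 libraries. The code was tested on simulated data. Alternatives changed the pseudocount, the filter, the scaling, the variance fit and the loci, added the replicate number as a block, and left out each library. The members and lists were chosen with earlier results of these data known. All 10 members are named, with the 2 smallest p-values per direction and line of the comparison list and the 2 most alike loci per called member. Promoters came from RefSeq (GRCh38.p14), transcripts and neighbours from GENCODE. Python 3.11.15, pandas 2.3.3, NumPy 2.4.6, matplotlib 3.10.9 and Biopython 1.88 were used.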

Additional observations from a re-analysis of the deposited data

How the results depend on the processing

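No member's called change took the other sign under any alternative, and of 366 values of the 8 tested members 337 kept their direction and side of the threshold or were uncalled throughout, 24 lost a call and 5 gained one. Counts over all loci moved more. The 1480 calls of 5906 loci in HepG2 became 852 of 14354 with no filter and 975 of 3389 with a filter at 1 FPKM. Among Ensembl loci only they became 430 of 1922, where the fit reported above had called 450. The 1511 calls of 6474 loci in LM3 became 857 of 14050 with no filter. Among Ensembl loci only they became 378 of 2063, where the fit reported above had called 439. The 11 calls of the response difference became 7 with a pseudocount of 0.1, 19 with a pseudocount of 1, 94 with no filter, 7 with a filter at 1 FPKM, 20 with median centring, 5 after quantile normalization, 17 after rescaling and 5 among Ensembl loci. Of the 1651 Ensembl loci in the response difference, the fit reported above had called 3. Apart from the loci tested, the cause of these changes in count was not tested.

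With the replicate number as a block there were 1453 calls in HepG2, 1215 in LM3 and 0 in the response difference (505 at an unadjusted p under 0.05). The labels do not say that the numbers pair libraries, and deviations of same-numbered libraries correlated at -0.03 in HepG2 and 0.14 in LM3. The block ended the DUXAP8 call in HepG2 (adjusted p = 0.0827) and added CASC9 there.

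Leaving out 1 library gave 0 to 475 calls in HepG2 (limma gave 0 without JQ1 replicate 1 or 2, with 1771 and 1679 at an unadjusted p under 0.05), 0 in LM3 whichever was left out (limma, 1525 to 2365 at an unadjusted p under 0.05), and 0 to 3 in the response difference (431 to 689). The lone library is then assumed to vary like the other pair. With no filter, LINC00665 in HepG2 and DUXAP8 and UCA1 in LM3 also lost their calls (adjusted p = 0.0542, 0.0585 and 0.0507). CASC9 in LM3 gave no value with a filter at 1 FPKM. With 2 libraries a group and no fragment counts, no counting error can be given.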
